A study of Mus musculus with 24 samples.

Results

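The cytosolic ribosomal protein genes are described here in the liver of Abcb4 knockout mice, as log ratios against wild type liver. They were taken by symbol: every gene named Rpl or Rps followed by a number, with paralogs such as Rpl39l, Rpl22l1 and Rps3a1, together with the Rplp genes and Rpsa, and without the S6 kinases. This gave 70 of the 16504 genes named on the array, on 75 of its 22575 features, with 44 genes of the large subunit and 26 of the small subunit.

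The knockout mice carried the Abcb4tm1Bor allele on the FVB background (strain FVB.129P2-Abcb4tm1Bor/J), and the controls were FVB/NJ mice with both wild type alleles; all were male per the series' design. Abcb4 moves phosphatidylcholine across the canalicular membrane of hepatocytes into bile, and mice without it develop chronic liver injury around the bile ducts. Each of the 24 arrays, spotted cDNA arrays per the labels, held total liver RNA of both genotypes in 2 dyes, with 6 arrays at each of 3, 6, 9 and 20 weeks and 3 arrays per dye orientation in each week. In each week 5 mice of a genotype were killed and, with 1 dye swap, gave 6 arrays, so at least 1 array of a week repeats mice; p-values therefore rest partly on technical spread. The weeks are those of the array titles. One label counts the weeks after weaning, and the source names carry 3 weeks throughout.

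Values are log ratios of knockout over wild type, taken as log2 although the base is not stated. Their sign rests on taking Abcb4 as lower in the knockout; with the other sign every rise below would be a fall and every fall a rise. Abcb4 lay below 0 on all 6 arrays of every week, with means of -0.87 ± 0.24, -1.57 ± 0.37, -1.42 ± 0.66 and -1.34 ± 0.34 (SD, n = 6) at 3, 6, 9 and 20 weeks, by that choice. Whether its probe lies in the deleted part is not known. The place of each value on the array grid was settled from the data: over 48 accessions spotted many times, the median correlation between copies averaged 0.663 in the layout used and 0.00721 in a direct join. Because a ratio carries no level, the tissue could not be checked against liver markers, and levels of different ribosomal protein genes were not compared. In liver RNA from mixed cells, fewer cells of a type and less RNA per cell cannot be told apart.

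Ribosomal proteins assemble with ribosomal RNA into a small subunit, which reads the mRNA, and a large subunit, which joins amino acids and holds the exit tunnel for the new chain. They are made in matched amounts, and most of their mRNAs begin with a cytosine followed by pyrimidines, the terminal oligopyrimidine tract through which mTOR signalling controls their translation. In mammals their genes have many processed pseudogenes, and some have close paralogs, so an array probe can bind transcripts of near-identical copies; the value of a single member is uncertain to that extent.

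The promoters of the members whose mean over the 4 weeks passed the test described further on are shown first, so that the start regions, where this family is known for its pyrimidine tracts, can be read beside the values. RefSeq promoters (GRCm38.p6) were found for 57 of the 70 genes, with 68 start sites among them; 13 genes had no entry, of which Rpl36 is the one among the called members. Each sequence runs 5′ to 3′ on the gene's strand, from 40 bases before the annotated start to 25 bases from it. Capitals mark a run of at least 8 pyrimidines that touches the 15 bases on either side of the start. The windows are Rpl31 (chr1:39367811-39367875, plus strand), Rpl35a (chr16:33056442-33056506, plus strand, 1 of its 3 annotated starts; the other 2 have no such run), Rps12 (chr10:23787185-23787249, minus strand), Rps25 (chr9:44407674-44407738, plus strand), Rps26 (chr10:128626482-128626546, minus strand), Rps27 (chr3:90213624-90213688, minus strand), Rpl23 (chr11:97782415-97782479, minus strand), Rpl39l (chr16:10170188-10170252, plus strand) and Rps2 (chr17:24720023-24720087, plus strand).
Rpl31: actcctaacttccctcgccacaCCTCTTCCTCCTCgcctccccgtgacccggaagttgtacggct
Rpl35a: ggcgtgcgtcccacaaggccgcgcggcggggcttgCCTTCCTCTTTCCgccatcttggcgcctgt
Rps12: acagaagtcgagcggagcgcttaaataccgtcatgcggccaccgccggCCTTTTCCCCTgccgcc
Rps25: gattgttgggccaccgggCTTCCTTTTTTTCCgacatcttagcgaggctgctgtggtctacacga
Rps26: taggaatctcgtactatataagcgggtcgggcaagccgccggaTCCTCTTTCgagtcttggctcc
Rps27: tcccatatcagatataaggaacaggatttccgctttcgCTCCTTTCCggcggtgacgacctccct
Rpl23: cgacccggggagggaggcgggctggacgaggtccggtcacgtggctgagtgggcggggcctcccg
Rpl39l: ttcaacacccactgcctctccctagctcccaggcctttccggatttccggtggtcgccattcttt
Rps2: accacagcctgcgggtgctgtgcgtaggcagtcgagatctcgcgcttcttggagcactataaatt

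A pyrimidine run of this kind was found in 29 of the 68 member promoters (42.6%), against 17.9% of all 32851 RefSeq mouse promoters. A cytosine at the annotated start followed by 4 pyrimidines, as at the start of Rps27 and at the start of Rpl35a that is shown, was found in 11 of the 68 (16.2%) and in 2.5% of all. Over the whole promoter, 250 bases before to 50 after the start and on both strands, the ETS core CCGGAA stood in 34 of the 68 against 14.9% of all. The Sp1 box GGGCGG stood in 41 (60.3%) against 35.7%, and the YY1 core AANATGG in 23 (33.8%) against 16.1%. The TATA box TATAAA was held by 7 member promoters (10.3%) and by 13.6% of all, and the E box CACGTG by 8 (11.8%) and by 7.2%. These are matches of letters, not binding sites, and the arrays do not measure promoters.

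On single arrays the ribosomal protein genes lay together, above 0 on some arrays and below 0 on others of the same week. At least 60 of the 70 genes were on 1 side of 0 on 14 of the 24 arrays, and over 50 were on 18. The median over the 70 genes ranged from -0.48 to 0.47 between arrays, above 0 on 9 and below 0 on 15. Arrays were centred, so that about as many of all items lie above as below 0 on each by construction. The 591 features next to the members on the grid had medians between -0.020 and 0.014. On centred arrays a median over so many features tends to lie near 0. Single neighbours were not compared with their own member, so the part of the grid position in the common shift was not tested.

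At 3 weeks 3 array medians were above 0 and 3 below. The highest were 0.31, with 62 genes above 0, and 0.27, with 66 above 0. The lowest was -0.37, with 64 of the 70 genes below 0. Their mean was -0.03 ± 0.34 (SD, n = 6), so the arrays of this week split into a high and a low set that average to about 0.

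At 6 weeks 2 array medians were above 0, at 0.31 with 68 genes above 0 and at 0.16 with 59 above 0. The other 4 were below 0, from -0.12 with 60 genes below 0 to -0.42 with 61 below 0, and the mean of the 6 was -0.10 ± 0.28 (SD, n = 6). At 9 weeks the extremes were 0.29, with 63 genes above 0, and -0.43, with 64 below 0, and the 4 other arrays were between -0.09 and 0.06. Their mean was -0.04 ± 0.23 (SD, n = 6). At 20 weeks 2 arrays stood at 0.47 and 0.34 with 63 genes above 0 on each, and 1 array stood at -0.48 with 69 of 70 below 0. The mean of the 20-week medians was 0.00 ± 0.35 (SD, n = 6), so this week held both the highest and the lowest array of the series. In every week the SD between arrays was larger than the mean.

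**Figure D1:**
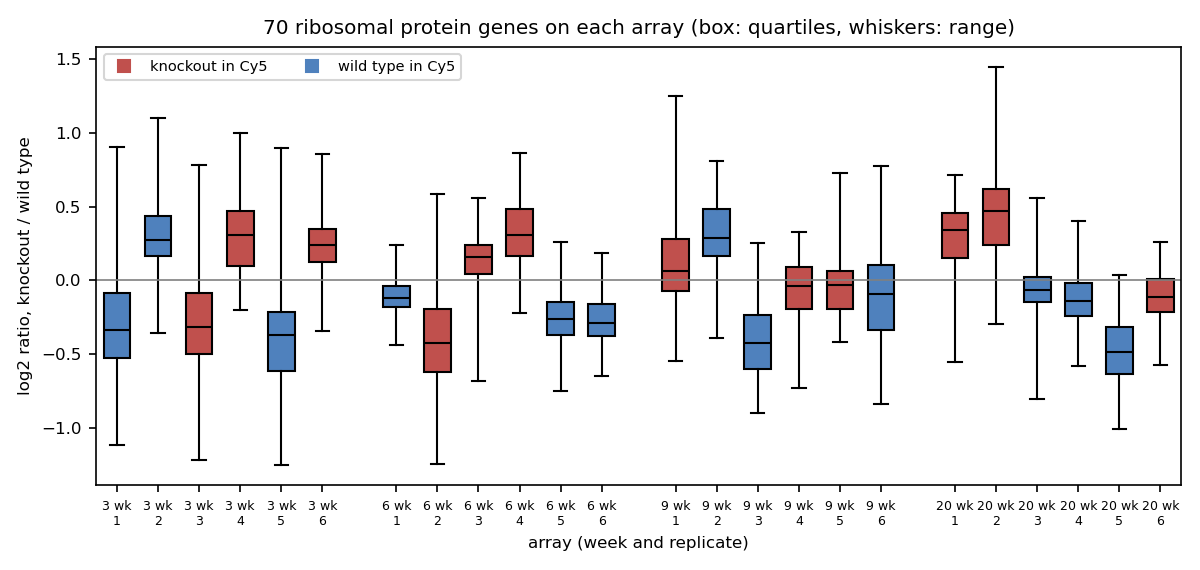
Log2 ratio of knockout over wild type (vertical axis) of the 70 ribosomal protein genes on each of the 24 arrays (horizontal axis, by week and replicate). The box gives the quartiles, the line the median and the whiskers the range; red boxes have the knockout RNA in Cy5 and blue boxes the wild type RNA. The medians lie between -0.48 and 0.47, and arrays on either side of 0 occur in every week.

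The subunits lay together: on the array with the lowest median the large subunit genes had a median of -0.46 and the small subunit genes one of -0.52, and on the array with the highest these were 0.43 and 0.48. The members also varied more than other genes. Their SD over the 24 arrays had a median of 0.351, against 0.162 for all items, and 66 of the 70 had a residual SD above the median of all items. After each array's ribosomal protein median was subtracted, the members' median SD was 0.218. Not every member followed that median. The subtraction raised the SD over the 24 arrays from 0.091 to 0.283 in Rpl37, from 0.285 to 0.408 in Rpl3 and from 0.374 to 0.495 in Rpl7a. The residual SD ranged from 0.083 in Rpl37 to 0.514 in Rpl22l1. The 95% half-width of a weekly mean, for 1 gene without adjustment, had a median of 0.28 over the members. Smaller weekly differences were thus mostly not detectable with 6 arrays. A call also had to pass adjustment over all items, which asks for larger differences: Rpl41, at 0.37 at 3 weeks, did not pass.

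The array medians went partly with the dyes. With the knockout RNA in Cy5, 7 of 12 arrays had a median above 0, from -0.42 to 0.47 with a middle value of 0.11. With the wild type RNA in Cy5, 2 of 12 were above 0, from -0.48 to 0.29 with a middle value of -0.20, so the orientations overlapped. The fit's dye term, positive where a ratio was higher with the knockout RNA in Cy5, was above 0 for 63 of the 70 genes and passed the test for 15 of them (limma, Benjamini-Hochberg), 14 higher and 1 lower. Of all items 11.5% passed, 6.28% higher and 5.26% lower. Rplp1 had the term 0.33 (adjusted p = 0.00643 from limma) and Rps12 0.20 (adjusted p = 0.00365 from limma), both higher, and Rpl29 was the lower one, at -0.17 (adjusted p = 0.0482 from limma). Each week holds both orientations equally, so the term cancels in a weekly mean.

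The question of the time course, whether liver without Abcb4 differs from wild type at each age, was asked of each member with limma's moderated test of the weekly mean against 0, adjusted over 20861 genes and unnamed features (Benjamini-Hochberg, two-sided, threshold 0.05). Few members passed. At 3 weeks none of the 70 did, with 8 at an unadjusted p under 0.05 (4 higher and 4 lower), against 7.39% of all items called. At 6 weeks 2 genes, Rpl35a and Rpl39l, were lower and none higher, against 20.9% of all items (10.1% lower and 10.8% higher). At 9 weeks the same genes, Rpl35a and Rpl39l, were lower and none higher, against 21.3% (10.9% lower and 10.4% higher). At 20 weeks none passed, with 3 at an unadjusted p under 0.05, against 13.5%. The members' share of calls was thus below that of all items in each week. Their median residual SD was 0.348 against 0.147 for all items, so a difference of the same size passes less often among the members.

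The medians of the weekly means were -0.03, -0.09, -0.03 and 0.01 at 3, 6, 9 and 20 weeks, beside medians from -0.0034 to -0.0014 over all items, which centring sets near 0. At 6 weeks 54 of the 70 means were below 0, against 42 at 3 weeks, 44 at 9 weeks and 34 at 20 weeks; the 6-week means split into 31 of 44 below 0 in the large and 23 of 26 in the small subunit. Because many of the members shift together on an array, these counts do not stand for independent genes.

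**Figure D2:**
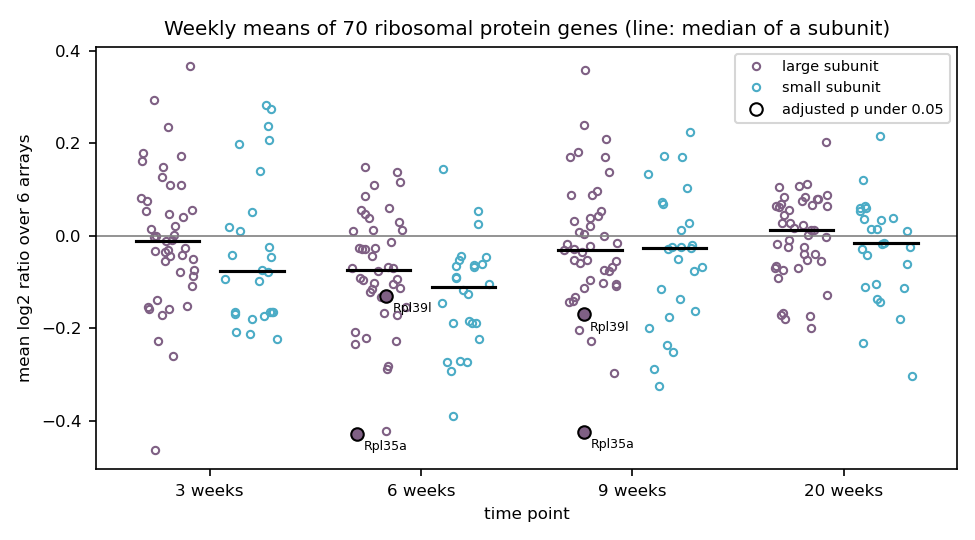
Mean log2 ratio over the 6 arrays of a week (vertical axis) for each ribosomal protein gene, by week (horizontal axis) and subunit; the black line is the median of a subunit. Filled points, Rpl35a and Rpl39l at 6 and 9 weeks, passed the adjusted p of 0.05, and the other 68 genes of those weeks did not.

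Rpl35a, a large-subunit protein needed for processing of the large subunit's ribosomal RNA and mutated in some human patients with Diamond-Blackfan anaemia, was the called member with the larger weekly change. At 6 weeks its arrays ranged from -0.92 to 0.15 with a median of -0.54, and the mean was -0.43 ± 0.44 (SD, n = 6, limma adjusted p = 0.0420). Of those arrays 4 were below 0 and 2 above. At 9 weeks the range was -0.90 to -0.14 with a median of -0.38, and the mean was -0.42 ± 0.28 (SD, n = 6, limma adjusted p = 0.0434), with all 6 arrays below 0. At 3 weeks it ranged from -0.68 to 0.72 with a mean of -0.04 ± 0.54, and at 20 weeks from -0.89 to 0.56 with a mean of -0.20 ± 0.52 (SD, n = 6), on both sides of 0 each time. Its dye term was 0.24 (limma adjusted p = 0.0409). Both calls are close to the threshold. Neither was kept with the dye term left out, nor with the replicate number as a block. Over the other settings compared for single members, the 6-week call was lost in 9 of 33. Among these were the settings without array 2, 3, 5 or 6 of that week. Its adjusted p ran from 0.0319 to 0.211 (limma). The 9-week call was lost in 11 of 33, among them those without any 1 of its arrays other than array 2 and without array 6 of 6 weeks, with an adjusted p from 0.0191 to 0.140 (limma).

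Rpl39l is a paralog of Rpl39, a small protein that lines the exit tunnel, and is known mainly from testis. At 9 weeks its arrays ranged from -0.36 to -0.04 with a median of -0.13 and a mean of -0.17 ± 0.14 (SD, n = 6, limma adjusted p = 0.00868), all 6 below 0. At 6 weeks they ranged from -0.27 to 0.01 with a median of -0.12 and a mean of -0.13 ± 0.12 (SD, n = 6, limma adjusted p = 0.0441), with 5 below 0. Its means were smaller in size than those of Rpl35a, a difference that was not tested, and its residual SD was 0.106, below the median of 0.147 over all items. Its means were -0.04 ± 0.09 at 3 weeks and -0.05 ± 0.10 at 20 weeks (SD, n = 6), and did not pass. Rpl39 itself had weekly means between 0.00 and 0.11 with SDs from 0.46 to 0.72, and spanned 0 in each week. The 6-week call of Rpl39l was lost in 12 of 33 other settings, among them those without any 1 of the arrays of that week other than array 3 and without array 1, 3 or 4 of 3 weeks, and the 9-week call in 1, where each week was fitted on its own.

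Of the members that did not pass, the smallest adjusted p-values were those of Rpl23, a large-subunit protein that can also bind the p53 ligase Mdm2. At 9 weeks its arrays ranged from -0.42 to 0.14 with a mean of -0.20 ± 0.20 (SD, n = 6, limma adjusted p = 0.0618), and at 3 weeks from -0.46 to 0.19 with a mean of -0.23 ± 0.24 (SD, n = 6, limma adjusted p = 0.0776). In each of these weeks 5 of 6 arrays lay below 0. At 20 weeks Rps12 had a mean of 0.22 ± 0.30 and Rpl31 one of 0.11 ± 0.13 (SD, n = 6, limma adjusted p = 0.0839 and 0.0871). At 9 weeks Rpl3, near the peptidyl transferase centre, lay above 0 on all 6 arrays, from 0.01 to 0.78, with a mean of 0.24 ± 0.28 (SD, n = 6, limma adjusted p = 0.0952). The lowest and the highest mean of 3 weeks were farther from the threshold: Rpl36 had -0.46 ± 0.55 with arrays from -1.25 to 0.09, and Rpl41, the shortest ribosomal protein, had 0.37 ± 0.40 with arrays from -0.20 to 0.86 (SD, n = 6, limma adjusted p = 0.175 and 0.196).

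Differences between the weeks were tested because the injury of the knockout develops with age. For 6 against 3, 9 against 3, 20 against 3, 9 against 6 and 20 against 9 weeks, limma called 0 of the 70 members each time, with 1, 0, 3, 0 and 2 of them at an unadjusted p under 0.05. The shares of all items called in these contrasts were 1.3%, 3.67%, 4.57%, 0.0767% and 0.0959%. limma's F test over all weeks also called 0 of the 70, with 1 at an unadjusted p under 0.05, against 5.08% of all items. The 20 against 3 weeks contrast of Rpl27a, 0.24 with an adjusted p of 0.126 from limma, had the smallest adjusted p of these contrasts. The contrasts share arrays, so they are not separate pieces of evidence.

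Over the mean of the 4 weekly means, 10 of the 70 members passed (limma, Benjamini-Hochberg), 2 higher and 8 lower, or 14.3%. Of all items 38.4% passed, 18.7% higher and 19.7% lower. Higher were Rps12, a protein of the small subunit's beak, and Rpl31, which lies by the exit of the peptide tunnel. Lower were Rpl23, Rpl35a, Rpl36 and Rpl39l of the large subunit and Rps2, Rps25, Rps26 and Rps27 of the small subunit.

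Rpl36 had the lowest mean, at -0.31 with an SE of 0.09 (limma adjusted p = 0.0121), and its 24 arrays ranged from -1.25 to 0.72 with a median of -0.27. Of its arrays 6 lay above 0 and 18 below, those above in each of the 4 weeks. Rpl35a had the mean -0.27 with an SE of 0.07 (limma adjusted p = 0.00490), and 7 of its 24 arrays lay above 0. The single-array values of these genes were wide, and neither had 1 sign throughout.

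Rps25, needed for initiation on some viral internal entry sites, ranged from -0.89 to 0.34 over the 24 arrays with a median of -0.33. Its mean was -0.25 with an SE of 0.07 (limma adjusted p = 0.00880), and at 20 weeks all 6 arrays lay below 0, from -0.89 to -0.03. Rps26 lines the channel by which the mRNA leaves the small subunit; its arrays ranged from -0.95 to 0.28 with a median of -0.28, and its mean was -0.23 with an SE of 0.07 (limma adjusted p = 0.00913). These small-subunit genes had similar weekly means, between -0.16 and -0.30 in all 4 weeks.

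Rps27, a zinc-finger protein of the small subunit, had the mean -0.27 with an SE of 0.10 (limma adjusted p = 0.0340) and arrays from -1.21 to 0.66. Rps2, by the mRNA entry, had -0.17 with an SE of 0.06 (limma adjusted p = 0.0257) and arrays from -0.67 to 0.31, 9 of them above 0. The call of Rps27 was lost in 10 of 32 other settings and that of Rps2 in 3. Without array 5 of 20 weeks, or without array 6, neither of these genes passed; Rps27 also did not pass without array 1, 3 or 5 of 3 weeks, array 2 of 6 weeks or array 3, 4 or 6 of 9 weeks.

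Rpl23 and Rpl39l had smaller differences with smaller spread. Rpl23 had the mean -0.15 with an SE of 0.04 (limma adjusted p = 0.00278) and arrays from -0.46 to 0.19, of which 6 lay above 0. Rpl39l had -0.10 with an SE of 0.02 (limma adjusted p = 0.00129) and arrays from -0.36 to 0.09, of which 5 lay above 0. The calls of Rpl23, Rpl35a, Rpl36, Rpl39l, Rps25 and Rps26 in this mean were kept in all 32 other settings compared for single members. Subtraction of the ribosomal protein median, described further on, is not among these settings. After it Rpl23 and Rpl39l did not pass (limma adjusted p = 0.159 and 0.695), whereas Rpl35a, Rpl36, Rps25 and Rps26 did. The subtraction raised the SD over the 24 arrays from 0.188 to 0.252 in Rpl23 and from 0.119 to 0.317 in Rpl39l. A call can be lost through such added spread, so the loss does not tell whether these genes shared the family's shift.

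Rps12 had the mean 0.15 with an SE of 0.04 (limma adjusted p = 0.00612), with arrays from -0.38 to 0.64 and 18 of 24 above 0. Its call was lost when the dye term was left out. Rpl31 had the mean 0.05 with an SE of 0.02 (limma adjusted p = 0.0492) and arrays from -0.16 to 0.30, and its call was lost in 23 of 32 other settings, 18 of which leave out 1 array. Rpl22l1 had a larger mean than either, 0.19 with an SE of 0.10, and did not pass (limma adjusted p = 0.140).

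**Figure D3:**
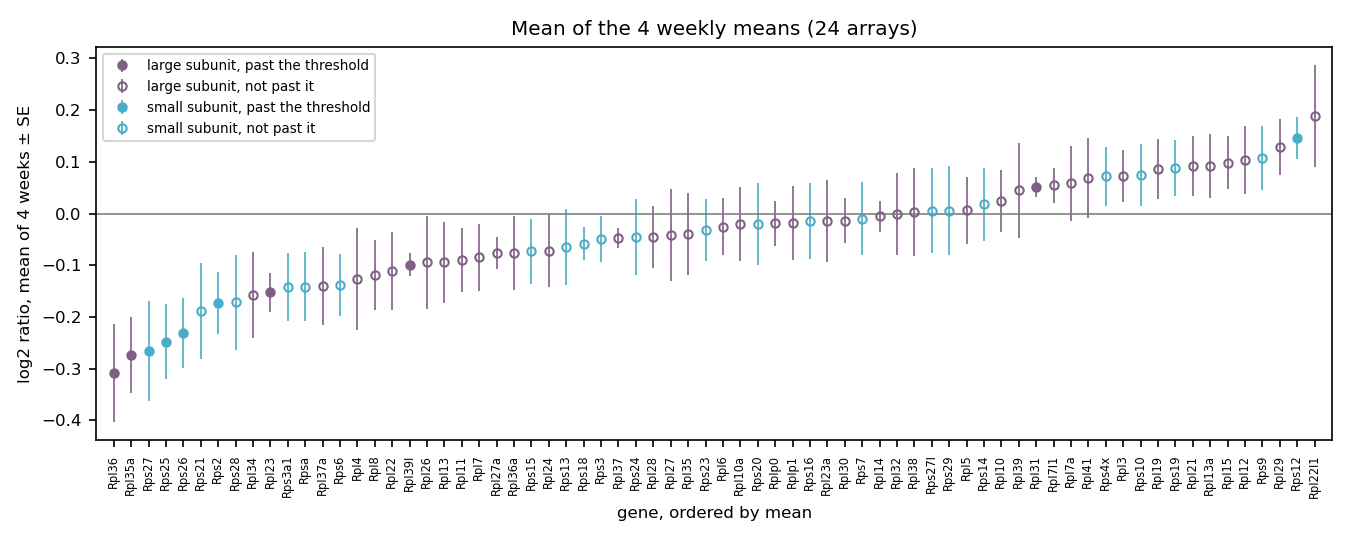
Mean log2 ratio over the 4 weekly means (vertical axis, bars ± 1 SE from the fit) for the 70 genes, ordered by that mean (horizontal axis). Filled points passed the adjusted p of 0.05: 8 genes below 0, from Rpl36 at -0.31 to Rpl39l at -0.10, and 2 above, Rpl31 at 0.05 and Rps12 at 0.15.

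**Figure D4:**
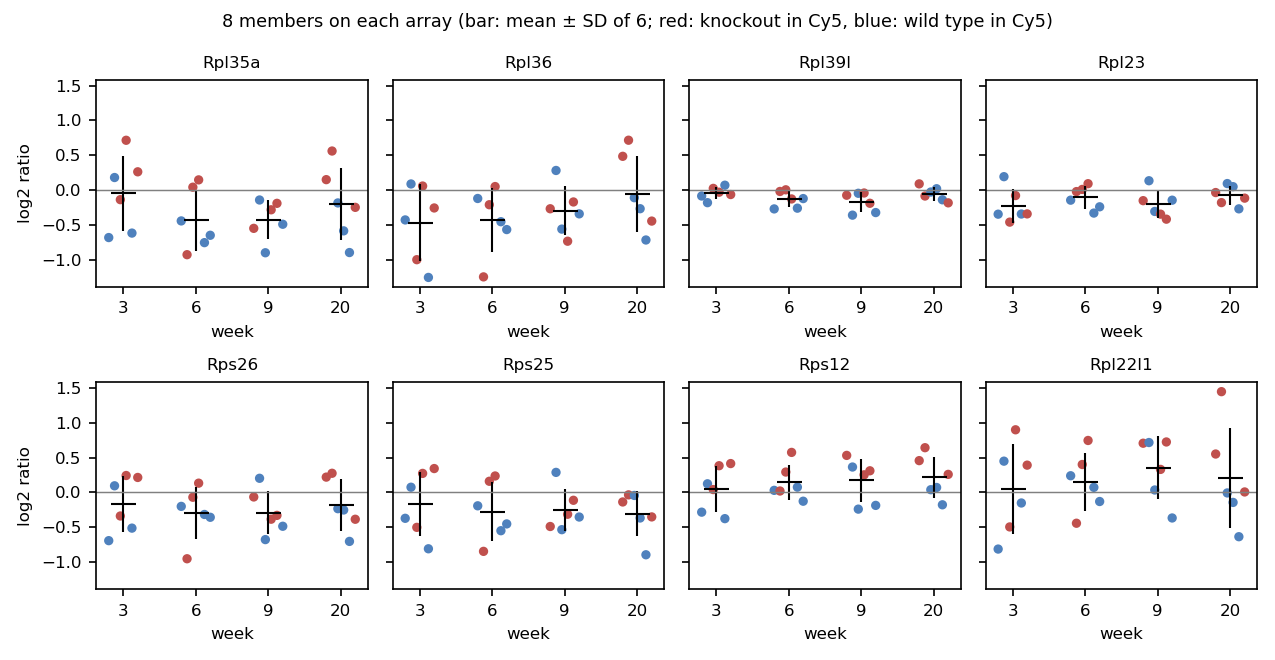
Log2 ratio (vertical axis) of 8 members, chosen after their values were seen, on the 6 arrays of each week (horizontal axis); the bars are mean ± SD, and the colours give the dye orientation. Rpl35a, Rpl36, Rps25 and Rps26 scatter widely and lie mostly below 0, Rpl39l and Rpl23 scatter little, and Rpl22l1 reaches 1.45 on 1 array of 20 weeks.

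Of the stalk, which brings elongation factors to the large subunit, the members held Rplp0 and Rplp1 but not Rplp2. Neither had a call in a week or in the mean of the 4 weeks. Rplp0, the base of the stalk, had arrays from -0.33 to 0.49 and a mean over the 4 weeks of -0.02 with an SE of 0.04 (limma adjusted p = 0.780). Rplp1 ranged from -0.88 to 0.74, with a mean of -0.02 and an SE of 0.07 (limma adjusted p = 0.871). Rpsa, a small-subunit protein also known as the laminin receptor precursor, had means of -0.22, -0.12, -0.11 and -0.11 over the weeks with SDs from 0.20 to 0.46. All these genes had arrays on both sides of 0 in each week.

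The paralogous pairs gave the following values, none of them tested against each other. Rpl22, an RNA-binding member, had weekly means of 0.11, -0.28, -0.10 and -0.17, and Rpl22l1 had 0.05, 0.15, 0.36 and 0.20. In mice, loss of Rpl22 raises Rpl22l1. At 9 weeks Rpl22l1 ranged from -0.37 to 0.72 with 5 of 6 arrays above 0, and Rpl22 from -0.41 to 0.57 with 5 of 6 below 0. Neither gene passed in any week.

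Rps27l, a p53 target, had weekly means of 0.20, -0.19, -0.05 and 0.06 with SDs from 0.40 to 0.61, while Rps27 had -0.21, -0.39, -0.32 and -0.14 with SDs from 0.42 to 0.71. Rpl7 had -0.03, -0.15, -0.11 and -0.04, and Rpl7l1 0.02, 0.09, 0.00 and 0.11. Rpl36a, Rps4x and Rps3a1 had means over the 4 weeks of -0.08, 0.07 and -0.14, none of which passed. For each of these genes the SD over the arrays of a week exceeded the size of the weekly mean in every week.

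Some members also known for other roles or from disease are given here as examples, not as a full list. The other called members were not sorted by such roles. Of the examples, Rpl5, Rpl11, Rps6 and Rps19 did not pass. Rpl23, which also binds Mdm2, and Rpl35a, also mutated in Diamond-Blackfan anaemia, passed in the mean of the 4 weeks. Rpl5 and Rpl11, which bind Mdm2 when ribosome assembly fails, had weekly means from -0.13 to 0.16 and from -0.15 to -0.04. Rps6, the substrate of the S6 kinases, had -0.21, -0.18, -0.14 and -0.03. Rps19, mutated in human Diamond-Blackfan anaemia, had 0.24, -0.06, 0.17 and 0.01.

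Of the 5 genes with 2 features, the features had the same sign on 16 of 24 arrays for Rplp0, 15 for Rpl27a, 15 for Rps12, 9 for Rps18 and 7 for Rpl30. For Rpl30, at 6 weeks, 1 feature had a mean of 0.33 ± 0.13 (SD, n = 6, limma adjusted p = 0.00317, features tested singly) and the other one of -0.21 ± 0.44 (SD, n = 6, limma adjusted p = 0.393). For Rps12, 1 feature passed when tested singly, at 0.17 ± 0.13 at 6 weeks (SD, n = 6, limma adjusted p = 0.00819) and 0.20 ± 0.11 at 20 weeks (SD, n = 6, limma adjusted p = 0.00261). Its other feature had means of 0.12 ± 0.39 and 0.23 ± 0.52 (SD, n = 6) in those weeks. At 3 weeks the Rps12 feature that passed in those weeks had a mean of -0.10 ± 0.09 and its other feature 0.20 ± 0.61 (SD, n = 6). In these genes and in Rps18 and Rpl27a, 1 feature varied over the 24 arrays with an SD of 0.115 to 0.210 and the other with 0.303 to 0.490. In each of them the wider feature was the one annotated with a RefSeq mRNA. In Rpl30 and Rps12 that wider feature passed in no week. No gene had features that passed in opposite directions.

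Because many of the members, though not all, share each array's shift, a comparison was added after the values had been seen. In it the array's ribosomal protein median was subtracted from every item. It asks which members stand apart from their own family. The subtraction puts the family's shift into the items outside it, so the shares of all items called are not a like-for-like measure here. It also adds that shift to members that do not follow it. At 3 weeks Rpl41 was higher, by 0.40 ± 0.23 and on all 6 arrays (SD, n = 6, limma adjusted p = 0.0130), and Rpl36 was lower, at -0.43 ± 0.31 and on all 6 (SD, n = 6, limma adjusted p = 0.0230), against 4.03% of all items called. Rpl35a was lower at 6 weeks, -0.33 ± 0.16 (SD, n = 6, limma adjusted p = 0.0224), against 7.65%, and at 9 weeks, -0.38 ± 0.16 (SD, n = 6, limma adjusted p = 0.00626), against 7.13%, each time on all 6 arrays. At 20 weeks limma called none of the 70, with 4 at an unadjusted p under 0.05, against 3.93%.

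Over the mean of the 4 weeks 4 members were higher and 6 lower than their array's ribosomal protein median. Of all items 18.3% were called (13% higher and 5.26% lower), a share that the subtraction itself alters. Without the subtraction it was 38.4%. Higher were Rpl22l1 at 0.23, Rps12 at 0.19, Rpl12 at 0.15 and Rpl15 at 0.14. Lower were Rpl36 at -0.27, Rpl35a at -0.23, Rps27 at -0.22, Rps25 at -0.20, Rps26 at -0.19 and Rps2 at -0.13. Rps26 lay below the family's median on 24 of 24 arrays, and Rpl36 and Rps27 on 22 each. Rpl12, Rpl15 and Rps12 lay above it on 21 of 24.

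The rest of the translation apparatus gave counts of calls in each week, from lists chosen with earlier results known, to be read against the 7.39%, 20.9%, 21.3% and 13.5% of all items called at 3, 6, 9 and 20 weeks. Of 77 mitochondrial ribosomal protein genes, 7, 8, 6 and 4 were lower over the 4 weeks, and 3, 0, 2 and 1 higher, or 13%, 10.4%, 10.4% and 6.49% in all. Mrpl55, of the mitochondrial large subunit, fell at 3, 6 and 9 weeks, by 0.41 ± 0.28, 0.28 ± 0.20 and 0.24 ± 0.21 (SD, n = 6, limma adjusted p = 0.000805, 0.00849 and 0.0203). Of 64 ribosome biogenesis genes, 2, 6, 4 and 12 were higher over the weeks, and 3, 2, 5 and 2 lower, or 7.81%, 12.5%, 14.1% and 21.9% in all. Both lists had smaller shares of calls than all items at 6 and 9 weeks. Eif6, which keeps new large subunits from joining small ones, rose in all 4 weeks, with means from 0.51 to 0.69. Nop56 and Nop58, core proteins of the snoRNA particles that modify ribosomal RNA, rose by 0.71 ± 0.33 and 0.54 ± 0.35 at 6 weeks (SD, n = 6).

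Of 33 translation initiation genes, 1 to 3 were higher and 2 to 4 lower in a week, and of 16 elongation and termination genes 1 to 3 were higher and 1 lower. Their shares called, 9.09%, 18.2%, 15.2% and 12.1% for initiation and 12.5%, 12.5%, 12.5% and 25% for elongation, were below those of all items at 6 and 9 weeks. Eif5 fell in all 4 weeks, with means from -0.44 to -0.33. Eef1a2, an elongation factor known from muscle and neurons, rose in all 4, with means from 0.27 to 0.73. Of 33 RNA polymerase I and III genes 0 or 1 were higher and 0 to 4 lower in a week (3.03%, 12.1%, 12.1% and 3.03%). Of 20 other mRNAs with a terminal oligopyrimidine tract, 1 to 3 were higher and 0 to 2 lower in a week (5%, 15%, 20% and 15%). Of 27 mTOR and Myc regulators, 0 to 3 were higher and 1 to 4 lower (7.41%, 14.8%, 11.1% and 25.9%), with Myc at 0.65 ± 0.49 at 9 weeks and 0.81 ± 0.56 at 20 weeks (SD, n = 6), both past the test. Of 15 p53 and ribosome stress genes, 0, 5, 4 and 1 were higher and 0, 1, 0 and 1 lower over the weeks (0%, 40%, 26.7% and 13.3%). Phlda3 of this list was higher at 6 and 9 weeks, at 0.46 ± 0.23 and 0.49 ± 0.39 (SD, n = 6). Some genes stand in more than 1 list.

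The medians of some lists had the sign of the ribosomal protein median on the same array. This held for the mitochondrial ribosomal proteins on 24 of 24 arrays, with list medians from -0.24 to 0.31, for translation initiation on 23, and for 13 ubiquitin fusion and ribosome-bound genes on 22. It held on 19 each for the other oligopyrimidine mRNAs, for the RNA polymerase I and III genes and for 79 respiratory chain subunits, a list added after the values were seen. Ribosome biogenesis genes shared the sign on 15 arrays, with medians only between -0.11 and 0.13. The mTOR and Myc regulators shared it on 11 and the p53 and ribosome stress genes on 6. The values of 1 array share its labelling and hybridisation, and the part of these in the common shift was not tested.

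**Figure D5:**
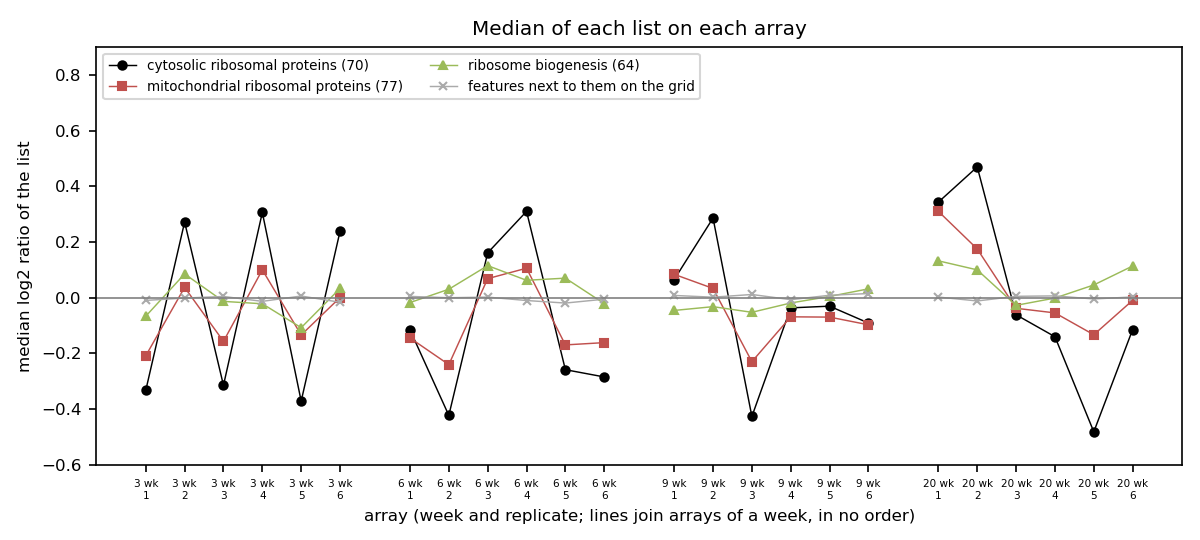
Median log2 ratio (vertical axis) of 4 lists on each of the 24 arrays (horizontal axis, by week and replicate; lines only join the arrays of a week). The cytosolic ribosomal proteins reach from -0.48 to 0.47 and the mitochondrial ones have the same sign on 24 of 24 arrays and reach from -0.24 to 0.31, while the 591 neighbouring features stay between -0.020 and 0.014.

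Markers of the cell types that a liver sample can hold were counted in the same fit, which compares genotypes and gives no levels. Hepatocyte markers were lower for 9, 6, 9 and 6 of 21 genes over the weeks, and higher for 1, 0, 1 and 1. Cholangiocyte markers were higher for 6, 9, 10 and 9 of 14, and stellate cell and myofibroblast markers for 7, 15, 15 and 11 of 17. Macrophage markers were higher for 7, 10, 11 and 10 of 16 and lower for 0, 0, 1 and 1. Cell cycle genes were higher for 15, 20, 11 and 3 of 25. Lymphocyte markers were higher for 3, 5, 4 and 5 of 18. Endothelial markers were higher for 0, 3, 2 and 0 of 14 and lower for 0, 2, 0 and 1. Erythroid markers were higher for 1, 0, 0 and 0 of 10 and lower for 1, 2, 1 and 0. In either direction 28.6 to 47.6% of the hepatocyte, 42.9 to 71.4% of the cholangiocyte, 41.2 to 88.2% of the stellate cell and 43.8 to 75% of the macrophage markers were called in a week, above the 7.39 to 21.3% of all items. The cell cycle genes had 60%, 80%, 44% and 12%, below all items at 20 weeks. Called shares were 16.7%, 27.8%, 22.2% and 27.8% for lymphocyte markers. They were 0%, 35.7%, 14.3% and 7.14% for endothelial and 20%, 20%, 10% and 0% for erythroid markers. The hepatocyte median lay below 0 on each array, from -0.72 to -0.03. The cholangiocyte, stellate cell, macrophage, lymphocyte and cell cycle medians lay above 0 on each array, whereas the ribosomal protein median changed sign between arrays of 1 week. Endothelial medians lay between -0.19 and 0.22 and erythroid medians between -0.23 and 0.09. Exocrine pancreas markers reached a median of -3.73 on array 6 of 3 weeks, where the ribosomal protein median was 0.24. The part of the cell types in the ribosomal protein values was not tested.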

How the data were processed

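Liver RNA of Abcb4 knockout and FVB/NJ mice was measured on 24 arrays with 2 colours. The authors' deposited table holds 1 log2 ratio per feature and array (log base taken as 2; Cy5 over Cy3 is likely, not stated); the sources used here do not give background correction or normalization. Array medians lay between -0.037 and 0.015, with 0 further per-sample columns. Names came from the platform annotation: 18218 features had 1 gene, 16 several and 4341 none, and 70 of 70 members were found in the RefSeq table (GRCm38.p6), used for names and promoters.

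Arrays were centred on their median, turned to knockout over wild type and averaged per symbol. limma 3.58.1 (R 4.3.3) fitted 1 mean per week and a dye term to all 24 arrays, with Benjamini-Hochberg adjustment over 20861 items (threshold 0.05). The scripts were tested on simulated data with changes placed in a single week and errors independent between items. Those data did not hold the shift that many members share on an array. The number of arrays limits the precision.

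Any ribosomal protein gene could be named; members with calls and 1 sign on 6 arrays, stalk genes, Rpsa, paralogs and genes with 2 features were to be given in full, and up to 4 genes of each other list per week. Members and lists were chosen with earlier results of these data known. Alternatives covered centring, quantile and common-spread scaling, the dye term, features singly or by their median, moderation, single weeks, averaging the closest pair of arrays, a replicate block, and leaving out each array.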

Additional observations from a re-analysis of the deposited data

Results flagged for a closer look

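Groups of 6 arrays were taken for each of the 70 members and for the ribosomal protein median, at each of the 4 weeks. In 10 of these 284 groups, or 3.52%, 1 array stood apart from the rest by Dixon's ratio (critical value 0.625 for 6 arrays). Chance alone gives about 1 in 20. At 3 weeks Rpl13a was at -0.73 on the fifth array, with the next array at 0.09. At 6 weeks the second array held Rpl37 at -0.19 and Rpl37a at -1.08, and the fourth array held Rps4x at 0.51. At 9 weeks the second array held Rpl22 at 0.57, Rpl27 at 0.60 and Rpl7a at -0.39, and the sixth array Rpl3 at 0.78. At 20 weeks Rpl30 was at -0.32 on the fifth array and Rpl37 at -0.22 on the sixth. The second arrays of 6 and 9 weeks held 2 and 3 of these values, and their ribosomal protein medians were -0.42 and 0.29.

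Rpl3 lay above 0 on all 6 arrays of 9 weeks and below 0 on all 6 of 20 weeks, with weekly means of 0.24 and -0.18. The difference, 20 against 9 weeks, was -0.42 and did not pass limma's test over all items (adjusted p = 0.249).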

How the results depend on the processing

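Of the 36 alternatives, features singly and subtraction of the ribosomal protein median were not compared for single members. Over the rest, 10988 of 11550 results of single members kept their direction and their side of the threshold. Of the others, 70 lost a call, 48 gained one and 444 changed sign, the last all without a call in either setting. The median of features cannot change a member's value, since no member has more than 2 features. Leaving out 1 array at a time, the number of members called ran from 0 to 2 at 3 weeks, 0 to 2 at 6 weeks, 1 to 4 at 9 weeks, 0 to 1 at 20 weeks and 8 to 14 in the mean of the 4 weeks, and stayed at 0 in the contrasts and the F test. Without array 2 of 9 weeks 1 was called at 20 weeks (Rps12), 4 at 9 weeks and 1 at 3 weeks (Rpl23). Without array 2 of 3 weeks 2 were called at 3 weeks (Rpl23 and Rps3), and without its array 4, 1 (Rpl27a). At 6 weeks 0 were called without array 2, 5 or 6 and 1 without array 1, 3 or 4, or without array 1, 3 or 4 of 3 weeks. At 9 weeks 1 was called without array 1, 3, 4 or 6, or without array 6 of 6 weeks. The members' weekly medians then ran from -0.10 to 0.04, -0.19 to -0.01, -0.11 to 0.05 and -0.09 to 0.08, with 1 sign throughout at 6 weeks alone, and the calls on the other lists ran from 353 to 409 around 381.

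At 3 weeks, where 0 members were called, quantile normalization gave 1, a common spread 3, leaving out arrays 1 and 2 together 1, and subtraction of the ribosomal protein median 2; Rpl23 was called under the first 3 of these. At 6 weeks, where 2 were called, a fit without the dye term, each week on its own and averaging the closest pair of arrays each gave 0, and a common spread, trend and robust moderation, and subtraction of the ribosomal protein median each gave 1. At 9 weeks, where 2 were called, quantile normalization, a common spread, no dye term, each week on its own, the closest pair averaged and subtraction of the ribosomal protein median each gave 1. With features tested singly the counts were 4 at 6 weeks, 1 at 20 weeks, 1 in the F test, 1 for 20 against 3 and 1 for 6 against 3 weeks. The cause of these changes was not tested.

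The replicate numbers share only a number: over 36 pairs of same-numbered arrays the correlation of deviations ran from -0.36 to 0.50 with a median of 0.092, and 18 exceeded 0.1. With the number as a block, 1 member was called at 3 weeks, 1 at 6 weeks and 2 at 9 weeks: Rpl35a lost both its calls and Rpl23 gained one at 3 and at 9 weeks. The counts at 20 weeks, in the mean of the 4 weeks, in the contrasts and in the F test were 0, 10, 0 and 0, as without it. Feature brightness is not analysed here; 6 arrays of 5 mice a week limit what could be detected.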
